A study of Mus musculus with 36 samples.

Results

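Mast cell genes were followed through the developing mouse heart: the 8 genes Tpsb2, Hdc, Cpa3, Cma1, Mcpt4, Kit, Fcer1a and Ms4a2. Every probe set annotated to the symbol of 1 of these genes alone was taken, which gave 12 of the 45037 probe sets analysed, among 34945 probe sets annotated to a single symbol and 18193 genes. Tpsb2, Hdc, Kit and Ms4a2 had 2 probe sets each, and the other 4 genes had 1. The list was proposed with measured values of these arrays known, and the record does not say which contrast was used. The levels and differences of the 8 genes are therefore a description, with no test. The lists of other genes tested below were also chosen with earlier results of these data known. Their p-values and counts are therefore not independent of these arrays.

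The arrays were made from C57BL/6 mice, with no transgene or treatment named in the labels. Hearts were split into ventricles and atria daily from E12.5 to E14.5, again at E16.5 and again at E18.5, which gave 10 groups. For the 2 youngest groups, E10.5 and E11.5, the description names the middle part of the embryo around the heart, whereas the source field names whole hearts, and they are called heart region. Each of the 12 groups held 3 arrays. The E16.5 arrays carry that day in their titles and day 15.5 in their descriptions, and the titles were followed. No label says whether the 3 arrays of a group came from separate animals, so their spread may be technical.

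Mast cells are tissue immune cells that arise from blood progenitors and store histamine, serglycin and proteases in dense granules. Their survival and growth depend on the receptor tyrosine kinase Kit and its ligand, stem cell factor, which is encoded by Kitl. Antigen bound to IgE on the high-affinity receptor FceRI makes them release the granules. Mast cells are known to live in the connective tissue of the heart, around its vessels.

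The upstream sequences of 7 of the 8 genes were found in the RefSeq promoter table (GRCm38.p6), and Tpsb2 was not. Cpa3 and Cma1 are shown because their levels were higher at E18.5 than at E12.5 in both chambers, and Hdc because its E18.5 level differed between chambers. Each line gives the 250 bases before the gene's start, 5′ to 3′ on the gene's strand, and capitals mark GATAA on either strand (TTATC on the opposite one), the core of a motif bound by GATA factors.
Cpa3 chr3:20242182-20242431, minus strand: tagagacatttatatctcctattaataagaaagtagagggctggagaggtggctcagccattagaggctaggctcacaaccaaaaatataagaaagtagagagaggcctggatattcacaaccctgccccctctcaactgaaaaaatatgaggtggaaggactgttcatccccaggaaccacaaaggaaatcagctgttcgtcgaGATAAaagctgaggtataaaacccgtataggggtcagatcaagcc
Cma1 chr14:55944676-55944925, minus strand: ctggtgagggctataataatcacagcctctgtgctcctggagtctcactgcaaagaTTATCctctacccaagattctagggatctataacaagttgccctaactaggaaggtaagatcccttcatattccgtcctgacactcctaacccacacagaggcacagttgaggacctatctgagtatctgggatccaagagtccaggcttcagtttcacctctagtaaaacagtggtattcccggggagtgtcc
Hdc chr2:126618679-126618928, minus strand: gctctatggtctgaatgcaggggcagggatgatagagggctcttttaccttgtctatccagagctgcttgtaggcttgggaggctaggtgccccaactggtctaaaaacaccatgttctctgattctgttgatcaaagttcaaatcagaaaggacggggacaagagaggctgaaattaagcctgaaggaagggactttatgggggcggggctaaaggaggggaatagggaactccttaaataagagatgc
GATAA was present in the upstream bases of 5 of the 7 genes, Cpa3, Cma1, Fcer1a, Mcpt4 and Ms4a2, and in 22.6% of the 32851 promoters of the table. In Cpa3 the match lay 45 to 41 bases before the start, and in Cma1 194 to 190 bases before it. The E-box motifs CACGTG and CATGTG, which do not overlap GATAA, were present in 0 and 1 of the 7 genes (Fcer1a), and in 6.0% and 12.3% of all promoters. Hdc and Kit held none of the 3 motifs in this window. A match is only a match of letters.

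The values were linear intensities, each array already scaled to a 2% trimmed mean of 500, with array medians from 143.8 to 210.7. No detection calls were in the file. A probe set was taken as low where fewer than 3 arrays exceeded 171.8, the median of all values. Correlations between arrays of a group were from 0.956 to 0.981. The 3′ minus 5′ difference of the control probe sets (log2) was 0.21 to 0.47 for actin and -0.38 to -0.23 for Gapdh. Atrial arrays E13.5 replicate 3, E16.5 replicate 3 and E18.5 replicate 3 had the highest summed level of 10 foregut and lung genes (6615, 10872 and 16234). E12.5 atrium replicate 2 and E16.5 ventricle replicate 2 had the highest Alb (6352 and 4237).

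Of the 8 genes, 5 had a probe set past this filter: Tpsb2, Hdc, Cpa3, Cma1 and Kit. Fcer1a, Ms4a2 and Mcpt4 did not exceed 171.8 on any array, so the mast cell label can rest only on the other 5 genes here. Of these, Tpsb2 exceeded 171.8 on 7 arrays (brighter probe set) and Hdc on 5 and 3, all of E16.5 or E18.5. Tpsb2 and Hdc thus passed the filter only through the late arrays where they were high, and their passing is no separate support for the label. Kit is also carried by melanocytes, blood progenitors and interstitial cells, so its level does not mark mast cells alone. That leaves Cpa3 and Cma1, which exceeded 171.8 on 26 and 25 arrays. In tissue arrays, fewer cells of a type and less RNA per cell cannot be told apart. Different probe sets bind with different strength, so levels are compared within a probe set and not between genes.

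Toward birth the genes went 3 ways. The granule protease genes Tpsb2 (brighter probe set), Cpa3 and Cma1 had their highest levels at E18.5 in ventricles and atria alike. The dimmer Tpsb2 probe set had its highest group mean in E18.5 ventricles (72.3). In atria its mean was 29.9 at E18.5 and 42.6 at E14.5. Mcpt4, also a granule protease gene, is among the weak ones. Hdc and Kit were higher in atria than in ventricles at E18.5, by 1.60 ± 0.44 and 1.49 ± 0.17 (SE) on the log2 scale. Fcer1a, Ms4a2 and Mcpt4 gave weak signals on every day. All log2 values are of the intensity plus 17, and folds on this scale understate the change of weak signals.

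Among the granule proteases, Tpsb2 encodes the tryptase Mcpt6, a serine protease held in the granules of connective tissue mast cells. The brighter of its probe sets read 34.8, 20.4 and 8.2 at E10.5 and 25.7, 13.8 and 7.6 at E11.5 in the heart region. In ventricles it read 18.3, 20.6 and 31.1 at E12.5, 46.3, 30.8 and 22.7 at E13.5, 12.8, 36.7 and 28.5 at E14.5, 15.2, 115 and 159.5 at E16.5, and 294, 234 and 262 at E18.5. In atria the values were 6.9, 6.3 and 6.8 at E12.5, 26.4, 17.8 and 7.3 at E13.5, 16.3, 39.1 and 23.4 at E14.5, 198, 138 and 33.9 at E16.5, and 279, 301 and 182 at E18.5. All 24 arrays up to E14.5 lay at or below 46.3, all 6 arrays of E18.5 lay above 171.8, and the E16.5 arrays were spread between them. In each chamber the E18.5 arrays lay above every E12.5 array. The difference from E12.5 to E18.5 was 2.81 ± 0.50 (SE) on this scale in ventricles, 6.99-fold, and 3.49 ± 0.50 in atria, 11.2-fold. At E18.5 the chambers overlapped, with means of 264 ± 29.9 (SD, n = 3) in ventricles and 254 ± 63.5 in atria and a difference of -0.07 ± 0.50. The dimmer Tpsb2 probe set stayed at or below 115 on every array and did not follow the first (r = 0.12 over 36 arrays): its differences from E12.5 to E18.5 were 0.69 ± 0.44 in ventricles and -0.09 ± 0.44 in atria. The mean of both probe sets gave 1.75 and 1.70 for Tpsb2, so its size depends on which probe set is read.

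Cpa3 encodes carboxypeptidase A3, a metalloprotease of mast cell granules. It read 129.6, 117 and 121 at E10.5 and 149, 151 and 168 at E11.5. Ventricles read 144, 244 and 242 at E12.5, 326, 152 and 273 at E13.5, 440.1, 249 and 304 at E14.5, 395, 364 and 485 at E16.5, and 502, 491 and 482 at E18.5. Atria read 146, 108 and 205 at E12.5, 172, 443 and 254 at E13.5, 418, 352 and 223 at E14.5, 373, 470.1 and 294 at E16.5, and 537, 577 and 439 at E18.5. The lowest group was E10.5 and the highest were both chambers of E18.5, with wide overlap between E13.5 and E16.5. From E12.5 to E18.5 the log2 difference of Cpa3 was 1.20 ± 0.28 in ventricles, 2.29-fold, and 1.69 ± 0.28 in atria, 3.22-fold, with no overlap of the arrays in either chamber. The chambers overlapped at each of the 5 ages, with atrial minus ventricular differences from -0.43 ± 0.28 at E12.5 to 0.16 ± 0.28 at E13.5.

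Cma1 encodes chymase 1 (Mcpt5), which is a connective tissue mast cell chymase able to form angiotensin II. It read 133, 91.7 and 43.7 at E10.5 and 135, 169 and 185 at E11.5. Ventricles read 181, 190.5 and 211 at E12.5, 221, 134 and 139.6 at E13.5, 231, 239 and 217 at E14.5, 288, 311 and 326 at E16.5, and 488, 437 and 452 at E18.5. In atria Cma1 read 151, 166 and 139 at E12.5, 154, 326 and 243 at E13.5, 298, 211 and 178 at E14.5, 354, 456 and 260.1 at E16.5, and 410.0, 499.7 and 358 at E18.5. In ventricles the E14.5, E16.5 and E18.5 arrays of Cma1 did not overlap, whereas the atrial arrays of these days did. The log2 difference from E12.5 to E18.5 was 1.18 ± 0.25 in ventricles, 2.26-fold, and 1.37 ± 0.25 in atria, 2.58-fold. Between chambers Cma1 differed by -0.13 ± 0.25 at E18.5, and the arrays overlapped. At E12.5 the atrial arrays lay below the ventricular ones (-0.32 ± 0.25).

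Mcpt4 encodes the chymase of mouse connective tissue mast cells, and its intensities were low throughout. Its group means were from 8.6 at E13.5 in ventricles to 43.3 at E14.5 in atria, and the latter was carried by 1 array at 106 beside 8.9 and 15.0. Between E12.5 and E18.5 it differed by 0.18 in ventricles and 0.29 in atria, with an SE of 0.36 in each.

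**Figure D1:**
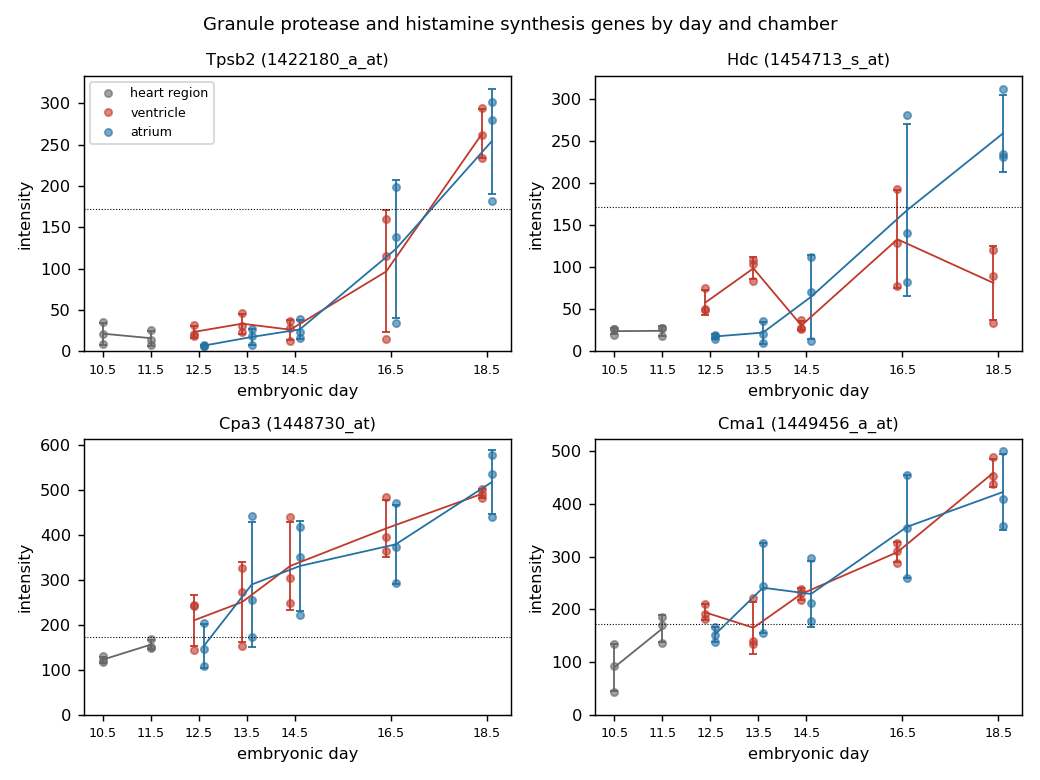
Intensity (linear scale) of Tpsb2, Hdc, Cpa3 and Cma1 against embryonic day, 1 probe set a gene. Points are arrays (grey heart region, red ventricle, blue atrium), lines join group means, bars are ± SD (n = 3) and the dotted line is 171.8. Tpsb2, Cpa3 and Cma1 have their highest means at E18.5 in both chambers, while for Hdc the E18.5 atrial arrays lie above the E18.5 ventricular arrays.

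Histamine synthesis rests on Hdc, the histidine decarboxylase that makes histamine from histidine. Its brighter probe set read 26.3, 19.2 and 25.8 at E10.5 and 27.2, 27.6 and 17.7 at E11.5. In ventricles Hdc read 48.5, 74.8 and 50.1 at E12.5, 104, 83.8 and 108 at E13.5, 37.2, 26.3 and 28.0 at E14.5, 129, 76.9 and 193 at E16.5, and 120.5, 89.9 and 32.9 at E18.5. In atria Hdc read 19.7, 14.7 and 18.0 at E12.5, 20.1, 36.1 and 10 at E13.5, 70.6, 111 and 11.8 at E14.5, 281, 139.9 and 82.1 at E16.5, and 230.4, 234 and 312 at E18.5. For this brighter Hdc probe set, the atrial arrays lay below the ventricular ones at E12.5 and E13.5. The chambers overlapped at E14.5 and E16.5, and the atrial arrays lay above at E18.5. The atrial minus ventricular log2 difference of this probe set, each with an SE of 0.44, was -1.10 at E12.5 and -1.61 at E13.5. It was 0.54 at E14.5, then 0.23 at E16.5 and finally 1.60 at E18.5. Over the days from E12.5 to E18.5 the brighter Hdc probe set differed by 2.99 ± 0.44 in atria, 7.95-fold, and by 0.29 ± 0.44 in ventricles, where the arrays overlapped. The low E12.5 and E13.5 intensities lie under 171.8, so these early differences are between weak signals.

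The dimmer Hdc probe set gave 153, 205 and 255 at E18.5 in atria against 51.8, 29.5 and 36.3 in ventricles. At E16.5 it read 230.4, 69.5 and 51.1 in atria and 37.7, 30.4 and 36.5 in ventricles, and no other group had an array above 46.0. Its E18.5 difference between chambers was 1.97 ± 0.38, in the direction of the first probe set, and the pair had r = 0.71 over the 36 arrays. In atria its mean log2 level was 5.64 at E12.5 and 7.76 at E18.5, and in ventricles 5.28 and 5.79. It did not show the higher ventricular level of E13.5, where it read 44.2, 20.4 and 24.4 in ventricles and 26.9, 27.0 and 29.2 in atria. At E12.5 its mean was 33.6 in atria and 22.1 in ventricles, with overlapping arrays. That is the opposite direction to the brighter probe set at E12.5.

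Among the receptors, Kit, which binds stem cell factor, had 2 probe sets, and the brighter one exceeded 171.8 on all 36 arrays. It read 442, 443 and 408 at E10.5 and 558, 691 and 562 at E11.5. In ventricles Kit read 736, 886 and 637 at E12.5, 814, 824 and 841 at E13.5, 774, 1050.4 and 984 at E14.5, 821, 723 and 592 at E16.5, and 647, 406 and 540.2 at E18.5. In atria Kit read 507, 668 and 735 at E12.5, 733, 874 and 879 at E13.5, 874, 643 and 789 at E14.5, 1245, 874 and 944 at E16.5, and 1311, 1525 and 1674 at E18.5. The chambers overlapped up to E14.5, and the atrial arrays lay above the ventricular ones at E16.5 and E18.5. Every E18.5 atrial array was above every other array of the series for this probe set.

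The atrial minus ventricular difference of Kit, each with an SE of 0.17, was -0.24 at E12.5, 0.00 on the next day and -0.28 at E14.5. It was 0.51 at E16.5 and reached 1.49 at E18.5. Between E12.5 and E18.5 Kit differed by 1.23 ± 0.17 in atria, 2.34-fold, and by -0.50 ± 0.17 in ventricles, so the change in atria exceeded that in ventricles by 1.73 ± 0.24. The dimmer Kit probe set read 366, 475 and 409 at E18.5 in atria against 108, 198 and 242 in ventricles, a difference of 1.18 ± 0.26. In ventricles it differed by -0.68 ± 0.26 from E12.5 to E18.5, with overlapping arrays, and in atria by 1.27 ± 0.26. At E16.5 its arrays overlapped between chambers, with 349.6, 246 and 206 in atria and 259.6, 241 and 167 in ventricles. The pair had r = 0.77 over 36 arrays.

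Without the 3 atrial arrays with the highest foregut and lung sum, the E18.5 difference between chambers was 1.41 for Kit and 1.47 for Hdc, and for Tpsb2 it was 0.14. Kit is also carried by melanocytes, blood progenitors and interstitial cells. Of 6 melanocyte genes tested (Dct, Tyr, Tyrp1, Pmel, Mlana and Sox10), Mlana alone was called higher in E18.5 atria than in ventricles (2.41 ± 0.38, limma). The other 5 were not called, and 11% of all probe sets were called higher in atria. The summed level of the 6 was 1506 to 1749 in E18.5 atria and 988 to 1461 in E18.5 ventricles, with no gene listed at 0. Its part in the Kit difference was not tested. The 5 blood progenitor genes summed to 3331 to 3429 in E18.5 atria and 4066 to 4787 in E18.5 ventricles, and to 1435 to 1718 and 2265 to 3015 at E12.5, with no gene listed at 0. Of the 4 tested, 0 were called between chambers at E18.5 (limma, with 0 at an unadjusted p below 0.05). Of all probe sets, 11% were called higher and 8.53% lower in atria. From E12.5 to E18.5, 2 of the 4 rose in each chamber, beside 12.7% of all probe sets in ventricles and 12.6% in atria. The part of blood progenitors in the Kit levels was not tested.

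Kitl, the ligand of Kit, is no member and was tested in the fit over 27256 probe sets. It read 877, 1202 and 883 in E12.5 ventricles, 869.5, 1005 and 874 in E12.5 atria, 2443, 2469.5 and 2287 in E18.5 ventricles, and 1434, 912 and 1184 in E18.5 atria. Kitl rose in ventricles from E12.5 to E18.5 (1.28 ± 0.18, limma adjusted p = 6.5e-06) and was not called in atria (0.33 ± 0.18, adjusted p = 0.195). It was lower in atria than in ventricles at E16.5 (-0.87 ± 0.18, limma adjusted p = 0.00119) and at E18.5 (-1.04 ± 0.18, adjusted p = 0.000128). At these ages 8.32% and 8.53% of all probe sets were called lower in atria. At E18.5 the chamber with the higher Kit intensities was thus the one with the lower Kitl intensities.

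**Figure D2:**
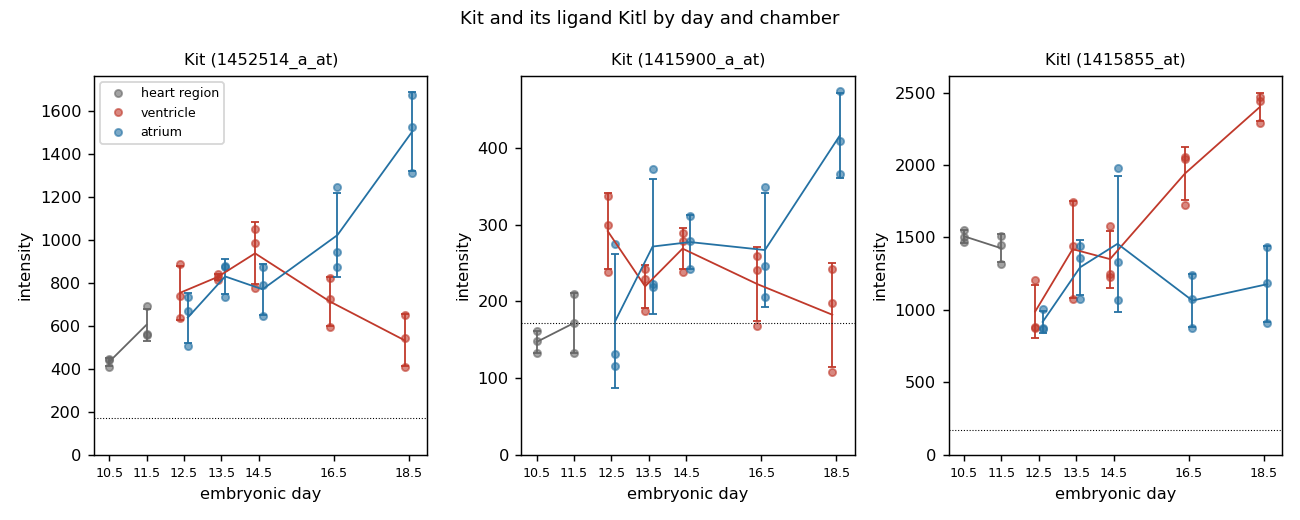
Intensity (linear scale) of both Kit probe sets and of Kitl against embryonic day. Points are arrays (grey heart region, red ventricle, blue atrium), lines join group means, bars are ± SD (n = 3) and the dotted line is 171.8. At E18.5 the atrial arrays lie above the ventricular ones for both Kit probe sets and below them for Kitl.

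Fcer1a and Ms4a2 encode the IgE-binding alpha chain and the signal-amplifying beta chain of FceRI. Fcer1a had group means from 59.1 at E11.5 to 115.7 at E14.5 in ventricles. At E18.5 it read 97.8, 93.3 and 115 in ventricles and 84.2, 70.3 and 73.3 in atria, where the atrial arrays were the lower ones (-0.36 ± 0.32). From E12.5 to E18.5 Fcer1a differed by 0.12 ± 0.32 in ventricles and 0.03 ± 0.32 in atria. The receptor's alpha chain therefore had no array above 171.8 on the days when Tpsb2 (brighter probe set), Cpa3 and Cma1 were highest.

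The brighter Ms4a2 probe set read 119.6, 92.3 and 129.6 in E18.5 ventricles and 106, 108 and 103 in E18.5 atria, its 2 highest group means. Between E12.5 and E18.5 it differed by 0.29 ± 0.35 in ventricles, where arrays overlapped, and by 0.55 ± 0.35 in atria, where they did not. The dimmer Ms4a2 probe set had its highest group mean at E16.5 in ventricles (116, 102 and 97.8), and the pair had r = -0.08 over 36 arrays. The probe sets of Ms4a2 thus gave no common order of the groups.

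**Figure D3:**
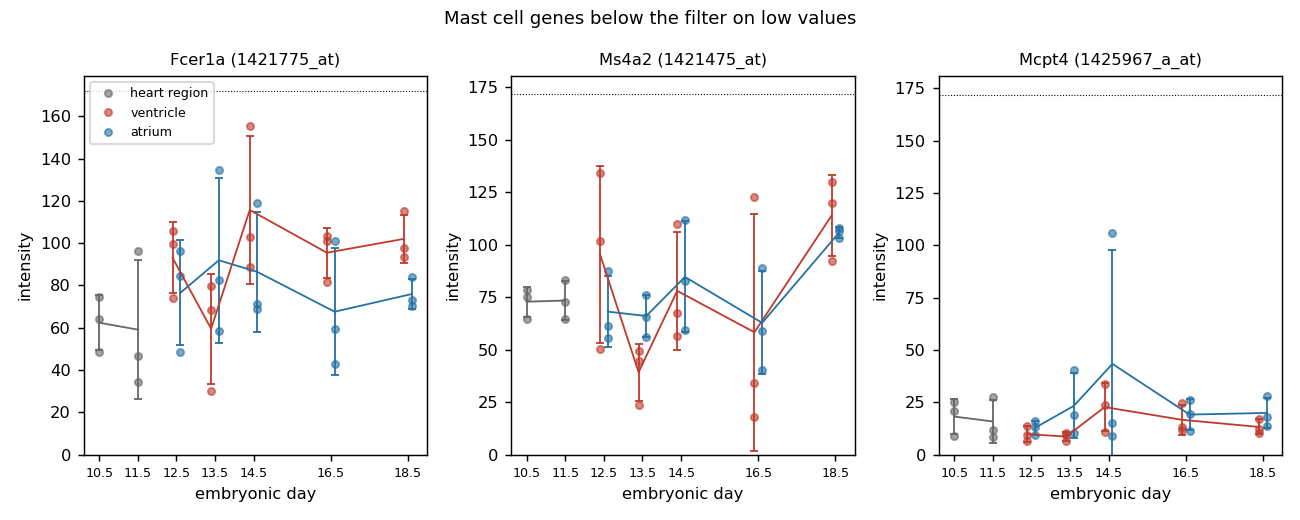
Intensity (linear scale) of Fcer1a, Ms4a2 and Mcpt4 against embryonic day. Points are arrays (grey heart region, red ventricle, blue atrium), lines join group means, bars are ± SD (n = 3, drawn from 0 upward) and the dotted line is 171.8. Every array of the 3 genes lies below the dotted line.

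Ordering the 12 groups by mean log2 level gave 11 steps between neighbours for each probe set, and few exceeded the larger SD of the 2 neighbours. For Kit, only the step from E18.5 atria down to the next group did, in both probe sets (0.56 against an SD of 0.26, and 0.50 against 0.24). For the brighter Tpsb2 probe set, the step from E18.5 atria down to E16.5 atria was 1.15 against an SD of 1.09, and that from E11.5 to E12.5 atria was 0.43 against 0.40. Cpa3 had 1 such step, from E18.5 to E16.5 ventricles (0.25 against 0.20), and Cma1 had 2, both at the lower end of its order. Hdc had 1 in each probe set, Ms4a2 had 0 and 1, and Fcer1a and Mcpt4 had 0. Most neighbouring groups of these genes thus did not differ beyond their spread. Neighbours in such an order are the groups closest in mean by construction, so small steps are likely for any gene. They say nothing of groups further apart.

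Over the 8 genes, with 1 probe set each, the median log2 difference from E12.5 to E18.5 was 1.30 in atria and 0.29 in ventricles, beside 0.01 and -0.05 over all probe sets tested. Arrays of E18.5 lay wholly above those of E12.5 for 6 genes in atria (all but Fcer1a and Mcpt4), where 15.5% of 45037 probe sets did so, and for 3 genes in ventricles (Tpsb2, Cpa3 and Cma1), where 12.7% did. Since the genes may have been chosen on these contrasts, nothing is read from these counts. Between chambers, the median over the 8 genes was -0.33 at E12.5, 0.32 a day later and 0.01 at E14.5, then 0.20 at E16.5 and finally -0.01 at E18.5. As the mean of the 5 ages it was -0.02. At E12.5, Tpsb2, Hdc and Cma1 lay wholly below in atria, beside 11.3% of probe sets. At E13.5, Mcpt4 and Ms4a2 lay wholly above, beside 16.2%, and Hdc wholly below, beside 10.7%. Kit lay wholly above at E16.5, beside 10.6%. At E18.5, Hdc and Kit lay wholly above in atria, beside 16.2% of probe sets, and Fcer1a wholly below, beside 13.7%.

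**Figure D4:**
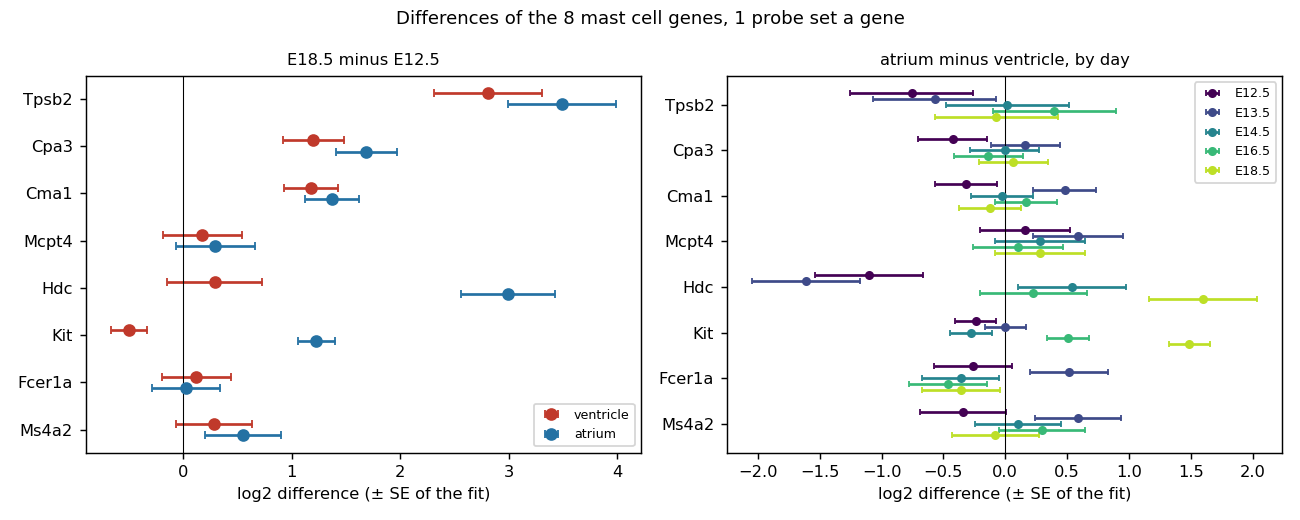
Log2 differences of the 8 genes (1 probe set each, log2(intensity + 17)), from E12.5 to E18.5 in each chamber on the left and atrium minus ventricle at each day on the right. Points are differences and bars are ± SE of the fit. Tpsb2, Cpa3 and Cma1 lie right of 0 in both chambers on the left, while Kit lies at 1.23 in atria and -0.50 in ventricles.

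In the heart region, Cma1 differed by 0.84 ± 0.25 from E10.5 to E11.5, Kit by 0.47 ± 0.17 and Cpa3 by 0.31 ± 0.28. The E11.5 arrays lay wholly above the E10.5 arrays for these 3 genes, beside 11.4% of probe sets. From E16.5 to E18.5, Tpsb2 and Cma1 lay wholly higher in ventricles, beside 5.85% of probe sets, and Kit and Ms4a2 in atria, beside 7.62%.

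Across the 36 arrays, Cma1 and Cpa3 had a Pearson r of 0.88, which was 0.57 after each group's mean was taken away. For Cma1 with Tpsb2 these values were 0.76 and 0.32, for Hdc with Tpsb2 0.73 and 0.29, and for Cpa3 with Tpsb2 0.71 and 0.12. The order of the pairs within groups was another one. Cpa3 with Hdc had 0.69 and 0.46, and Cma1 with the weak Mcpt4 0.26 and 0.52. Tpsb2 with the weak Ms4a2 had 0.13 and -0.43. Kit was less close to the granule genes, with r between 0.30 and 0.54 over arrays and between -0.12 and 0.13 within groups for Cma1, Cpa3, Hdc and Tpsb2. The arrays share the trend over days and the scaling of each array, so these values are descriptions.

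The genes whose log2 levels were most like the mean z-score of Cma1, Cpa3, Hdc and Tpsb2 over the 36 arrays, among 12954 genes compared, were Lrrc2 (r = 0.958), Aspn (0.954), Pacsin3 (0.947), Pde4b (0.941), Gstm1 (0.940), Dpt (0.932), Art3 (0.927), Mfap5 (0.926), Cish (0.923) and Cyth3 (0.921). Each of the 10 had a higher mean at E18.5 than at E12.5 in both chambers. They were chosen for likeness to genes with high E18.5 levels, so this rise follows from the choice.

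Other genes of the mast cell were taken from 5 lists with 59 genes tested. As these lists were chosen with earlier results of these data known, their counts and p-values are read as a description. Granule genes were tested for 6 of 13 listed, receptors for 10 of 21, Fc epsilon and Kit signalling for 18 of 23, mediators and secretion for 11 of 20, and transcription factors for 14 of 16. Between E12.5 and E18.5, 4 of the 59 rose and 8 fell in ventricles, where 12.7% of probe sets rose and 16% fell, and the median was -0.10 beside -0.05 over all probe sets. In atria 11 rose and 8 fell, where 12.6% rose and 11.7% fell, and the median was 0.03 beside 0.01. Without E12.5 atrium replicate 1, 9 genes were called in all. At E18.5, 15 were higher and 4 lower in atria than in ventricles (11% and 8.53% of all probe sets), with a median of 0.21 beside 0.02. Without E18.5 atrium replicate 3, which had the highest foregut and lung sum, 12 of these genes were called in all. As the mean of the 5 ages, 26 were higher and 8 lower in atria, beside 20.9% and 21.5%, with a median of 0.16 beside -0.01.

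By the interaction term, 8 of the 59 changed differently in the chambers over these days, beside 3.78% of all probe sets. That count was 1 with median centring, and 0 when only the compared arrays were fitted (limma, with 15 genes at an unadjusted p below 0.05). With 1 array left out at a time it was between 0 without E18.5 atrium replicate 2 (limma, again 15 unadjusted) and 14 without E12.5 atrium replicate 3.

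Among granule genes, Srgn, the serglycin core protein that holds proteases in granules, rose in ventricles (0.70 ± 0.23, limma adjusted p = 0.0205). That call was lost without E12.5 ventricle replicate 2 or E18.5 ventricle replicate 2, with adjusted p up to 0.075. Ctsc, cathepsin C, which activates granule proteases, was higher in E18.5 atria than ventricles (1.15 ± 0.15, adjusted p = 2.89e-06), and so was the serpin Serpinb6b (1.38 ± 0.19, adjusted p = 5.77e-06). These were the 2 genes called of the 6 granule genes at E18.5, where 11% of all probe sets were higher in atria.

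Of the mediator genes, 5 of 11 were higher in E18.5 atria and 1 was lower, beside 11% and 8.53% of all probe sets. Slc18a2, the vesicular monoamine transporter that loads histamine, was higher in atria (1.19 ± 0.21, limma adjusted p = 9.54e-05) and fell in ventricles from E12.5 to E18.5 (-1.04 ± 0.21, adjusted p = 0.000341). Hnmt, the histamine-inactivating methyltransferase, was higher in atria (1.43 ± 0.26, adjusted p = 0.000199), as was the phospholipase gene Pla2g4a (1.15 ± 0.23, adjusted p = 0.000386). Alox5, the leukotriene-forming lipoxygenase, was the lower gene (-0.89 ± 0.20, adjusted p = 0.00128).

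Of 18 signalling genes at E18.5, 4 were higher and 3 lower in atria, again beside 11% and 8.53%. Lat, an adaptor of FceRI and T cell receptor signalling, was higher (1.89 ± 0.41, limma adjusted p = 0.00128), and it fell in ventricles from E12.5 to E18.5 (-2.38 ± 0.41, adjusted p = 7.1e-05). Prkcb, a protein kinase C gene, fell in both chambers from E12.5 to E18.5 (-1.06 ± 0.23 in ventricles, adjusted p = 0.0007, and -1.38 ± 0.23 in atria, adjusted p = 6.68e-05).

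Of 14 transcription factor genes, 3 rose and 3 fell in atria from E12.5 to E18.5, beside 12.6% and 11.7% of all probe sets. Gata1 (-2.14 ± 0.46, limma adjusted p = 0.000989) and Tal1 (-2.33 ± 0.52, adjusted p = 0.00144), which also serve red cell development, fell. The Gata1 call was lost when only the arrays of the compared groups were fitted (adjusted p = 0.085). Without E12.5 atrium replicate 1 the differences were -1.25 for Gata1 and -1.62 for Tal1, and without E12.5 atrium replicate 3 they were -3.01 and -3.20. Red cell and platelet precursor genes were read beside these values. All 4 erythroid genes and all 3 megakaryocyte genes tested were called lower in E18.5 than in E12.5 atria, with medians of -3.83 and -1.17. In ventricles 3 of the 4 and 1 of the 3 were called lower, beside 16% of all probe sets. The summed erythroid level was 11457 to 34179 in E12.5 atria, with the highest in replicate 1, and 2533 to 2888 in E18.5 atria. The summed megakaryocyte level was 2910 to 8866 and 1944 to 2186. No gene of either list was listed at 0, and their part in the Gata1 and Tal1 differences was not tested. Cebpb rose (0.67 ± 0.14, adjusted p = 0.000685), and Cebpa rose (1.52 ± 0.45, adjusted p = 0.0143). The Cebpa call was lost without E12.5 atrium replicate 1 (0.91), without E18.5 atrium replicate 3 (1.09) and when only the compared arrays were fitted, with adjusted p up to 0.19. The receptor list had 3 genes higher and 3 lower of 10 in atria over these days, beside 12.6% and 11.7% of all probe sets. Among the lower genes were Csf2rb (-1.77 ± 0.51, adjusted p = 0.0104) and P2rx1 (-1.02 ± 0.21, adjusted p = 0.0006). The Csf2rb call was lost without E12.5 atrium replicate 1 (-0.88, adjusted p = 0.19) and when only the compared arrays were fitted (adjusted p = 0.16), and without E12.5 atrium replicate 3 the difference was -2.77.

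Markers of neighbouring cell types were read beside these results. None of the 2 basophil and 5 eosinophil genes passed the filter, and no gene was listed at 0. At E18.5 the basophil genes summed to 51.8 to 62.9 in ventricles and 9.3 to 20 in atria. The eosinophil genes summed to 123 to 240.4 over both chambers. The 10 macrophage genes summed to 7686 to 11011 in E18.5 atria and 4918 to 5318 in E18.5 ventricles. At E12.5 they summed to 3902 to 7307 in atria and 4818 to 5750 in ventricles, with overlap. Of the 10 genes, 4 were called higher in E18.5 atria than ventricles, beside 11% of all probe sets, and 6 were not called. Over the days between E12.5 and E18.5, 5 of the 10 rose in atria and 5 were not called, with a median of 0.53, beside 12.6% of all probe sets. In ventricles 3 rose and 1 fell, beside 12.7% and 16%. The part of macrophages in any of these differences was not tested.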

How the data were processed

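RNA of 36 mouse samples was measured on Affymetrix arrays. The authors deposited linear intensities of 45101 probe sets. Their computation, not given in the sources used here, could not be checked. The deposited scaling was kept, and 64 control probe sets were left out. Symbols came from the platform annotation, which left 9160 probe sets unnamed and 932 with several symbols.

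Intensities plus 17 (10% of the median of all values) were taken to log2. Probe sets above 171.8 on 3 or more arrays were tested, 27256 in all, for 12959 genes. R 4.3.3 with limma 3.58.1 fitted 12 group means (24 residual and 5.7 prior degrees of freedom, intensity trend). P-values were two-sided and Benjamini-Hochberg adjusted over all probe sets, with a threshold of 0.05. The fit was tested on simulated data with independent normal noise, where only a small set of probe sets was changed, in a single group. That setting is simpler than these arrays, so it says nothing of the counts reported here. A gene was read from its probe set with the highest mean. Differences of members below the filter came from the same fit to all probe sets. With 3 arrays a group, their number limits the precision.

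The members and lists were chosen with earlier results of these data known. Named genes were the members, Kitl, the 10 most alike genes and up to 4 called genes of a list in a comparison. Alternatives covered the normalization, the pseudocount (1 and 68), the filter, the fit, the replicate block, the mean of probe sets and left-out arrays.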

Additional observations from a re-analysis of the deposited data

Results flagged for a closer look

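Between E12.5 and E18.5, 8 of the 59 other mast cell genes changed differently in atria and ventricles by limma's interaction term, and 3.78% of all probe sets were called. Relative to ventricles, the atrial change was lower for Srgn (-1.12), P2rx1 (-1.09), Kitl (-0.95) and Fyn (-0.51). It was higher for Ccl2 (1.85), Ctsc (0.81), Cebpb (0.74) and Gab2 (0.56). Each of these 8 calls was lost in 8 to 18 of the 24 or 25 alternatives run for it. No outlier test was run within the groups of 3 arrays, though each array was left out in turn.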

How the results depend on the processing

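The interaction between chamber and day depended most on the settings: 1030 probe sets and 8 of the other mast cell genes were called. Median centring gave 425 and 1, only the compared arrays 407 and 0 (15 at an unadjusted p below 0.05 in limma), array weights 4733 and 16, and the fit without the 3 atrial arrays highest in lung genes 490 and 2. No filter gave 3 genes, no intensity trend 5, the mean of probe sets 5, and the fit without the 2 arrays highest in Alb 2. Leaving out each array in turn gave 452 to 2014 probe sets and 0 to 14 genes, with 0 (15 unadjusted) without E18.5 atrium replicate 2 and 14 without E12.5 atrium replicate 3.

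For the chamber difference at E18.5 (5314 probe sets and 19 genes), array weights gave 8474 probe sets, the strict filter at the 75th percentile 11 genes, the fit without the lung arrays 3454 and 12, and leaving out each array 3507 to 4721 and 12 to 18. For the mean of 5 ages (11570 and 34), the strict filter gave 7319 and 20. For atria over the period (6610 and 19), the strict filter gave 11 genes, only the compared arrays 4051 and 10, array weights 12642 and 35, and leaving out each array 3817 to 7409 and 9 to 21, the lowest without E12.5 atrium replicate 1. Causes were not tested.

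The atrial minus ventricular median of the 8 mast cell genes was 0.20 at E16.5, -0.02 with the mean of probe sets, -0.03 without the arrays highest in Alb, and -0.03 to 0.31 with each array left out. With each array left out it was 0.10 to 0.57 at E13.5 and -0.21 to 0.11 at E14.5. Its interaction was 0.38, and 0.16 with the mean of probe sets. The other medians moved by less than 0.182. That is the pooled SD within groups of the median of the 8 genes on each array. It is not an SE of these differences. Differences of single mast cell genes moved beyond their spread in 29 fits with other settings and 9 with an array left out. With a pseudocount of 1 the atrial difference from E12.5 to E18.5 was 5.02 for Tpsb2 and 3.81 for Hdc, and with 68 it was 2.09 and 1.93. Tpsb2 at E16.5 differed between chambers by 0.40, and by 1.01 without the lung arrays. No called value changed direction in the alternatives run.

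Atrial and ventricular arrays of the same number did not deviate together (r from -0.335 to 0.159 over 15 pairs, 1 of them over 0.1), and 2 of 15 atrial arrays were closest to their own number. With the replicate number as a block, 3406 probe sets were called at E18.5 and 5 genes in the interaction, and the other counts stayed within 1.5 times.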
